A study of Caenorhabditis elegans with 8 samples.

Results

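The genes described here encode the proteins of the cytosolic ribosome. They were chosen by WormBase name: every gene in the count files named rpl- or rps- followed by a number, together with rla-0, rla-1, rla-2 and ubl-1, and without the mitochondrial mrpl- and mrps- genes. The rule found 82 genes among the 46748 in the files, of which 47 are rpl- genes, 31 are rps- genes, 3 are rla- genes and 1 is ubl-1. Poly(A)-selected, strand-specific sequencing of RNA from late embryos of the nematode Caenorhabditis elegans gave 4 libraries from each of 2 strains. Embryos of the strain called WT carry lin-52(bn139), in which LIN-52 has a GFP and 3xFLAG tag and is otherwise unaltered. Embryos of the strain called 3A carry lin-52(bn151), with the same tag and the substitutions L42A, C44A and E46A in LIN-52, so the tag is present in both groups and an untagged strain is no part of the comparison. Both strains were grown from synchronized L1 larvae for 72 h (20 °C) in liquid culture on HB101 bacteria, and embryos released by bleaching were kept for no longer than 3.5 h before freezing. The series asked which genes are misexpressed when LIN-35, the worm pocket protein of the DREAM repressor, no longer associates with the MuvB subcomplex through LIN-52.

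A ribosome is built from a small subunit, which reads the messenger RNA, and a large subunit, which joins amino acids, and each holds one copy of nearly every one of its proteins. The proteins are therefore needed in matched amounts, and their genes are known in many organisms to be strongly and jointly expressed. A worm embryo starts with ribosomes laid down in the oocyte and adds transcripts of its own as it develops. In a bulk sample of whole embryos, a smaller share of cells that express a gene and less of its RNA per cell cannot be told apart. No sequences are printed, because the reference used here held none.

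The libraries stood apart in depth and composition before any comparison of genotypes. Each held between 14667743 and 68040557 read pairs assigned to genes. Ribosomal RNA genes took between 0.720% and 3.24% of them in WT, and 16.1%, 1.75%, 3.67% and 40.7% in 3A replicates 1 to 4. Levels below are CPM (counts in proportion to the library's total) scaled with edgeR's TMM factors (a trimmed mean of log ratios between libraries), which factors ranged from 0.630 to 1.92. Markers of the labelled stage were present: all 5 body wall muscle and all 5 pharynx genes listed, and 4 of 5 each for intestine, epidermis and neurons, reached 1 CPM in every library. The 6 major sperm protein genes together stayed at or under 0.581 CPM, each with no count in at least 1 library. The 6 vitellogenin genes, a product of the adult intestine, summed to between 2.73 and 76.6 CPM in WT and between 1.45 and 102 CPM in 3A. The 8 early embryo or oocyte markers summed to between 15.4 and 24.21 CPM in WT and between 26.2 and 44.1 CPM in 3A.

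Ribosomal protein transcripts were among the most abundant in these embryos. Of the 100 genes with the highest mean CPM, 67 belonged to the set chosen by name, and 80 of the 82 stood among the first 500. Genes of ribosomal proteins under other names, such as ubq-2, are not counted here or in the shares below. The other two in the set were rpl-37, at rank 1135 of the 12664 genes with enough counts to be tested, and rpl-42, the 1 member that did not pass the filter on low counts. A level per kilobase of exon (CPM per kb) allows members to be compared with each other. Its median over the 81 members tested was 6041 in WT and 5797 in 3A, and 49 of the 81 lay within 2-fold of the median in each group. The small subunit was the more even, with WT means from 2467 to 35776 CPM per kb over its 32 genes. The 49 large subunit genes tested ran from 86.4 to 37232 CPM per kb.

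**Figure D1:**
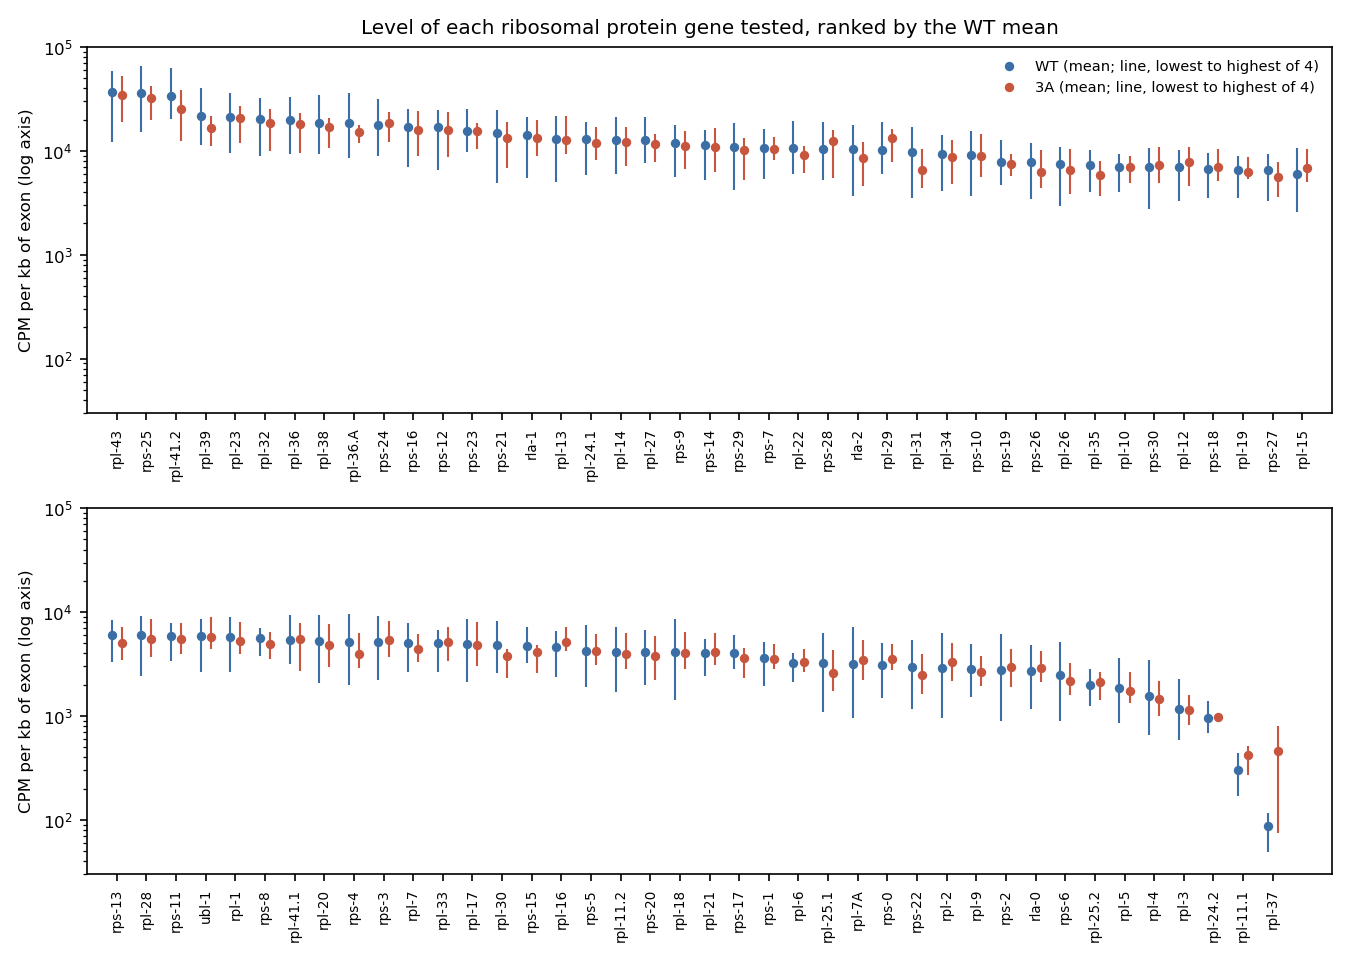
Level of each of the 81 ribosomal protein genes tested, in CPM per kb of exon on a log axis, ranked by the WT mean. Points are group means and lines run from the lowest to the highest of 4 libraries. WT and 3A overlap for every gene, most genes lie within 2-fold of the median of 6041 CPM per kb in WT, and rpl-37 and rpl-11.1 lie lowest.

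The 5 highest members per kilobase in WT were rpl-43, rps-25, rpl-41.2, rpl-39 and rpl-23. The first was rpl-43 (chromosome II, 14155294 to 14155569, plus strand), at 37232 ± 22261 CPM per kb for WT and 34652 ± 14092 for 3A (SD, n = 4 each). rps-25, which encodes a small subunit protein (chromosome IV, 5947093 to 5947605, minus strand), followed with 35776 ± 21121 and 32377 ± 9299 CPM per kb. The order of the first 3 genes changed between libraries. In WT replicate 1 rpl-43 was the highest of them, at 53437 CPM per kb beside 31895 for rps-25 and 21235 for rpl-41.2. In WT replicates 2, 3 and 4 rpl-43 lay below both of the others, so its first place by the mean rested on WT replicate 1. rpl-41.2 reached 33827 ± 20249 CPM per kb in WT. rpl-39, whose product lines the exit tunnel for the nascent chain, reached 21830.0 ± 13376. rpl-23 reached 21098 ± 10971. These genes are short, and across the 81 members the WT level per kilobase fell with exon length (Spearman's rho -0.62, a description across genes that share libraries). Of all counts assigned to ribosomal protein genes, rps-25 alone supplied a mean of 4.03% over the 8 libraries, and the 10 most counted genes supplied 27.2%.

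The lowest members tested were rpl-37, rpl-11.1, rpl-24.2, rpl-3 and rpl-4. The products of rpl-3 and rpl-4 are core large subunit proteins, near the catalytic centre and at the exit tunnel respectively. rpl-3 stood at 1156 ± 777 CPM per kb in WT and 1139 ± 322 in 3A, and rpl-4 at 1548 ± 1314 and 1455 ± 509 (SD, n = 4 each). Both groups overlapped fully for both genes. Their exons add up to 1456 and 1119 bp, against a median of 532 bp over the 82 genes. rpl-42 (chromosome II, 11092713 to 11094022, plus strand) was counted 0, 3, 3 and 0 times across WT libraries 1 to 4, and 1, 0, 2 and 0 times across 3A libraries 1 to 4. That is at or under the 3 counts taken as the smallest detectable signal, so its expression was not detectable at this depth.

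Counted as a share of the library, the 82 genes together took between 19.9% and 41.4% of what was counted to genes. Their share of gene counts was 32.1%, 36.5%, 31.2% and 41.4% in WT replicates 1 to 4. It was 31.1%, 30.5%, 33.4% and 19.9% in 3A replicates 1 to 4. The 3A library with the lowest share is the one with the highest ribosomal RNA share, 3A replicates 1 and 2 lie less than 1 percentage point below the lowest WT library, and 3A replicate 3 lies inside the WT range. The means were 35.3% ± 4.69 for WT and 28.7% ± 5.99 for 3A (SD, n = 4 each), a difference of -6.59 percentage points, and -3.66 without 3A replicate 4. The 95% Wilson intervals of these shares reached at most 0.0252 percentage points to either side and cover counting error only.

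Ribosomal RNA reads enlarge the denominator, and without those genes the share was nearly even between the groups. It was 33.2%, 36.8%, 31.5% and 41.9% in WT replicates 1 to 4 and 37.1%, 31%, 34.7% and 33.6% in 3A replicates 1 to 4. The means were 35.8% ± 4.61 and 34.1% ± 2.52, a difference of -1.76 percentage points that lies well within the SD of either group. All 3A values fall between the lowest and the highest WT value except that of 3A replicate 2, which is lower by less than 1 percentage point. Large subunit genes took 20.9% ± 2.82 for WT and 19.7% ± 1.46 for 3A on that denominator, and small subunit genes 15% ± 1.79 and 14.4% ± 1.07. No test was run on these shares, because they sum over genes chosen together.

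**Figure D2:**
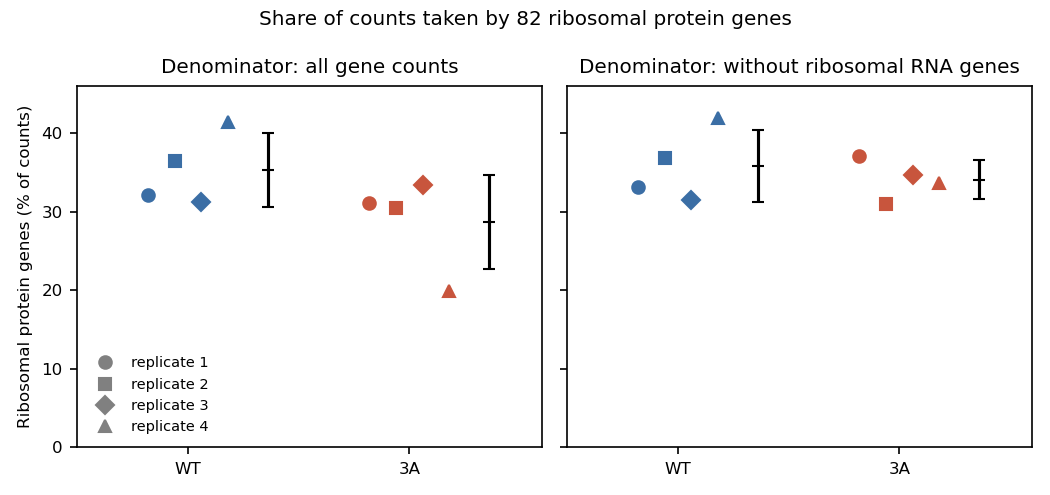
Share of counts taken by the 82 ribosomal protein genes, in percent, for each library (symbols mark replicates 1 to 4) with the mean and SD of 4 libraries. With all gene counts as the denominator 3A replicate 4 lies lowest at 19.9%, and without ribosomal RNA genes the 3A libraries lie between 31% and 37.1%.

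No ribosomal protein gene was called different between 3A and WT. Under edgeR's quasi-likelihood test with Benjamini-Hochberg adjustment over all 12664 genes tested, 0 of 81 members had an adjusted p-value under 0.05, against 0.371% of all genes (0.355% higher in 3A and 0.0158% lower). Before adjustment 1 of 81, rpl-37, had a p-value under 0.05, against 9.75% of all genes (5.72% higher in 3A and 4.03% lower). DESeq2 called that same 1 gene among 82 members, beside 153 of the 21154 genes to which it gave a p-value. For 0 of 81 members did the ranges of the groups stay apart, against 6.16% of all genes (3.80% higher in 3A and 2.36% lower). The median log2 fold change of the members was -0.09 and that of all genes tested -0.08. Of the 81 members 59 had a negative value, beside 57.2% of all genes, and 22 a positive one, beside 42.8%. Leaving out 1 library moved the members' median between -0.32 (without WT replicate 3) and 0.14 (without WT replicate 4), so its sign rested on single libraries: it was also positive without WT replicate 1, at 0.13, and without 3A replicate 2, at 0.08.

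Apart from rpl-37, the 80 members tested ranged from -0.58 to 0.46 in log2 fold change, and 79 of them stayed within 0.5 of 0. Standard errors ran from 0.32 to 0.61 with a median of 0.50, beside a median of 0.37 over all genes. Changes of that size or smaller were therefore not resolved for any of these genes. A change well above its standard error could also go uncalled: rpl-37, at 2.42 with SE 0.59, had an edgeR adjusted p of 0.189. Of the 49 large subunit genes tested 34 had a negative value, and of the 32 small subunit genes 25. The medians over all genes tested of each subunit were alike, -0.09 and -0.10. The lowest value belonged to rpl-31, whose product sits by the tunnel exit of the large subunit. Its level was 7258, 3021, 1501 and 5047 CPM across WT libraries 1 to 4, and 4505, 1908, 2157 and 2706 CPM across 3A libraries 1 to 4. WT replicates 1 and 4 are higher than every 3A library and WT replicate 3 lower than every one, and the estimated log2 difference was -0.58 (SE 0.53; edgeR adjusted p = 0.762). rpl-41.2, rps-4, rpl-39 and rpl-30 followed at -0.42, -0.40, -0.39 and -0.35, with edgeR adjusted p-values from 0.838 to 0.846.

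**Figure D3:**
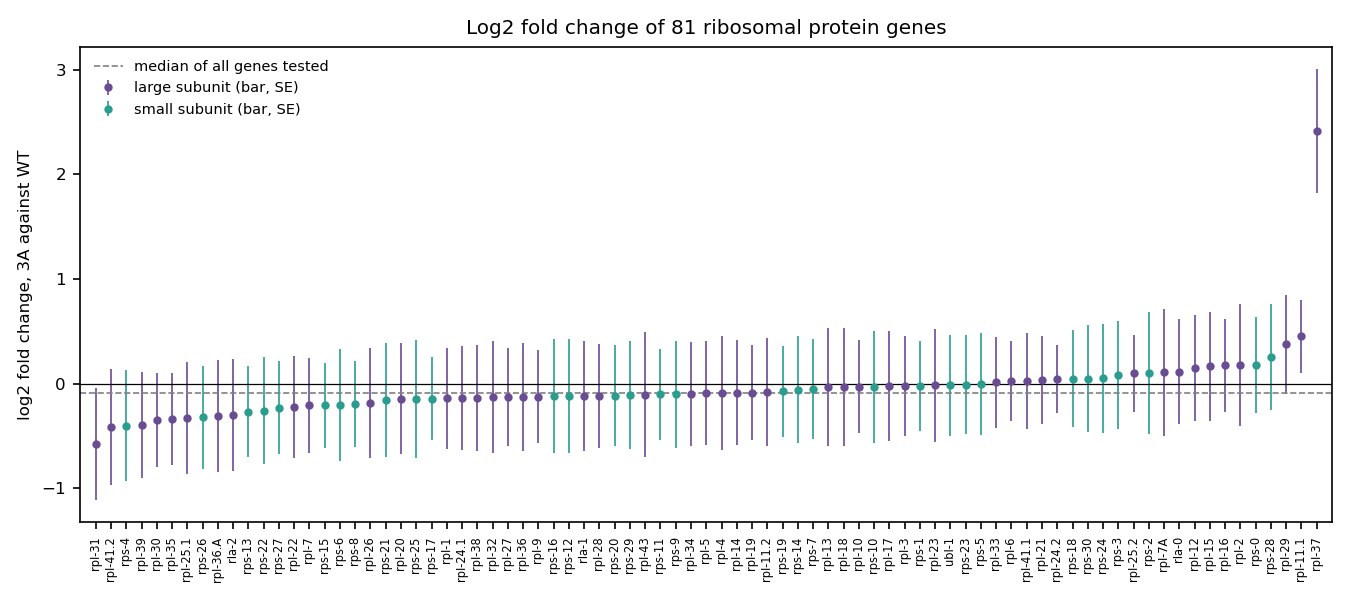
Log2 fold change of each of the 81 ribosomal protein genes tested, 3A against WT, with its standard error, ordered by size and coloured by subunit. The dashed line is the median of all genes tested at -0.08. The bars of nearly all members cross 0, and rpl-37 stands apart at 2.42.

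rpl-37 was the member with the largest difference, and it is hardly expressed beside the others. This large subunit gene (chromosome III, 3528642 to 3528917, plus strand) is annotated with a single exon block of 276 bp, a structure found in 2 of the 82 members, the other being rpl-43. It had 452, 1371, 3985 and 390 counts across WT libraries 1 to 4, and 3372, 3831, 5247 and 223 counts across 3A libraries 1 to 4. Scaled, these are 13.5, 18.9, 30.5 and 32.4 CPM in WT and 223, 91.6, 174 and 20.4 CPM in 3A. Replicates 1, 2 and 3 of 3A exceed every WT library, while 3A replicate 4, the library with the highest ribosomal RNA share, lies inside the WT range. The means were 23.8 ± 9.07 CPM for WT and 127 ± 89.5 for 3A (SD, n = 4 each), and edgeR put the log2 fold change at 2.42 with SE 0.59 (unadjusted p = 0.00158, adjusted p = 0.189). The adjusted p-value was 0.0213 without 3A replicate 4 and between 0.0689 and 0.614 in the other 7 fits that left out 1 library. It was 0.0301 with no filter on low counts and 0.00289 with DESeq2. The call thus depended on the test and on 1 library. rpl-37 also had the lowest mean correlation with the other members over the 8 libraries, at 0.05. The counts of a short gene in a conserved family lose reads that align to several places. Such reads made up between 1.82% and 14.4% of all reads counted per library, with the highest share in 3A replicate 4. Their part in the rpl-37 result was not tested.

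Among the members whose names come in numbered copies, one copy was usually far above the other, and for none of the 8 genes was the difference between the genotypes called. rpl-11.1 (chromosome V, 3585312 to 3586064, minus strand) and rpl-11.2 (chromosome X, 2241738 to 2242618, minus strand) encode versions of a large subunit protein that enters the ribosome together with the smallest ribosomal RNA. rpl-11.2 was at 5262, 2033, 1248 and 3502 CPM across WT libraries 1 to 4, and at 4631, 2056, 2140.2 and 2595 CPM across 3A libraries 1 to 4. rpl-11.1 was at 224, 169, 112 and 289 CPM across WT libraries 1 to 4, and at 276, 178, 337 and 298 CPM across 3A libraries 1 to 4. rpl-11.2 was the major copy in all 8 libraries, and the groups overlap for both. Per kilobase, rpl-11.1 supplied 7.65% ± 2.09 of the pair for WT and 10.4% ± 3.72 for 3A (SD, n = 4 each), with its highest share, 15%, in 3A replicate 3. The log2 fold change was 0.46 for rpl-11.1 (SE 0.35; edgeR adjusted p = 0.708), the second largest among the members, and -0.08 for rpl-11.2 (SE 0.51; adjusted p = 0.976).

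rpl-24.1 encodes a large subunit protein, and rpl-24.2 is a relative whose human counterpart is known as a factor of large subunit assembly. They lie on chromosome I, rpl-24.1 at 4585115 to 4586176 and rpl-24.2 at 9669415 to 9670098, both on the plus strand. rpl-24.1 was at 8527, 6068, 3213 and 10403 CPM across WT libraries 1 to 4, and at 9141, 4492, 5650.3 and 6388 CPM across 3A libraries 1 to 4. rpl-24.2 was at 432, 578, 397 and 819 CPM across WT and at 593, 573, 569 and 557 CPM in 3A. Its 3A libraries lay close together, with an SD of 15.1 CPM against 192 CPM in WT, and all of them inside the WT range (log2 fold change 0.04, SE 0.32; edgeR adjusted p = 0.979). rpl-24.2 was also among the 3 members least correlated with the rest over the libraries, with a mean Pearson r of 0.46, next to rpl-36.A with 0.37 and rpl-37.

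rpl-25.1 (chromosome X, 4715178 to 4715796, plus strand) and rpl-25.2 (chromosome I, 8329062 to 8329647, minus strand) encode versions of a protein at the exit of the nascent chain and were of similar abundance. rpl-25.1 was at 3078, 1055, 545 and 1669.8 CPM across WT libraries 1 to 4, and at 2112, 858, 852 and 1248 CPM across 3A libraries 1 to 4. rpl-25.2 was at 1016, 899, 618 and 1399.7 CPM across WT and at 1302, 709, 1086 and 1114 CPM in 3A. Both were lowest in WT replicate 3. The balance between the copies moved from library to library within a genotype: rpl-25.1 supplied 75.2% of the pair per kilobase in WT replicate 1 and 46.9% in WT replicate 3. The mean share was 57.7% ± 12.2 for WT and 53.4% ± 7.37 for 3A (SD, n = 4 each), a difference smaller than either SD. The log2 fold change was -0.32 for rpl-25.1 (SE 0.53; edgeR adjusted p = 0.873) and 0.10 for rpl-25.2 (SE 0.37; adjusted p = 0.951), and the latter was -0.18 with scaling by library size alone.

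rpl-41.1 and rpl-41.2 encode the shortest protein of the large subunit and lie in tandem on the plus strand of chromosome I, at 4789190 to 4789592 and 4790292 to 4790642, 699 bp apart. rpl-41.1 was at 1507, 1527, 1039 and 3078 CPM across WT libraries 1 to 4, and at 1946, 902, 2615 and 1825 CPM across 3A libraries 1 to 4. rpl-41.2 was at 5946, 8529.7, 5658 and 17753 CPM across WT and at 7383, 3478, 10866 and 6677 CPM in 3A. The downstream copy, rpl-41.2, was the higher one throughout. Per kilobase, rpl-41.1 supplied 17.7%, 13.2%, 13.4% and 12.8% of the pair in WT replicates 1 to 4 and 18.2%, 18%, 16.9% and 18.8% in 3A replicates 1 to 4. The 3A shares were even and above those of WT replicates 2, 3 and 4, and that of WT replicate 1 lies among them. The means were 14.3% ± 2.28 and 18% ± 0.782, and no test was run on the ratio. The log2 fold change was 0.03 for rpl-41.1 (SE 0.46; edgeR adjusted p = 0.993) and -0.42 for rpl-41.2 (SE 0.55; adjusted p = 0.846). Reads aligned to several places stand in a counter of their own in the files, so reads shared by near-identical copies are missing from the gene counts, and the levels of such copies are uncertain.

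**Figure D4:**
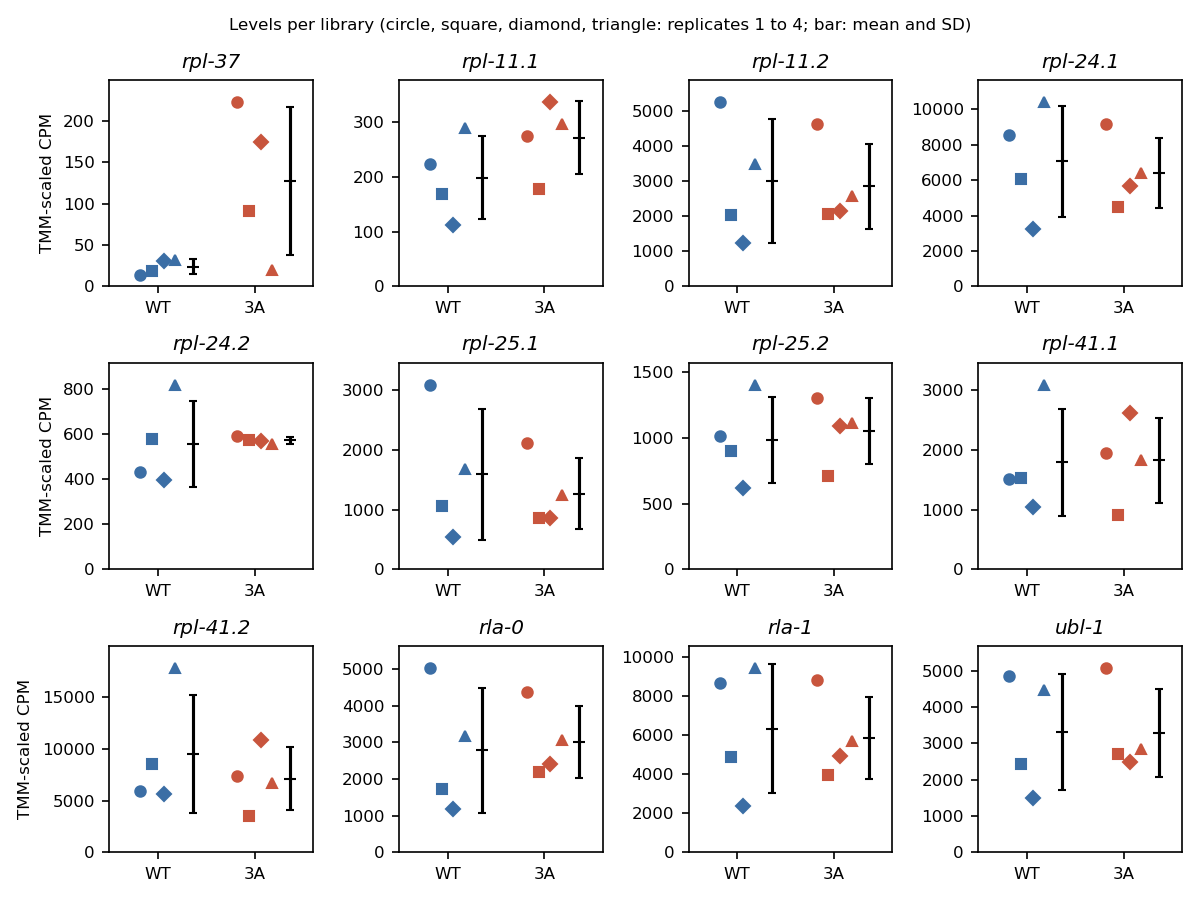
TMM-scaled CPM of 12 ribosomal protein genes in each library, WT in blue and 3A in red, with the mean and SD of 4 libraries. The groups overlap in every panel, and in the rpl-37 panel 3 of the 4 3A libraries lie above all WT libraries while replicate 4 lies at 20.4 CPM.

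The stalk of the large subunit, which recruits the elongation factors, is formed by the products of rla-0, its base, and of rla-1 and rla-2, its acidic arms. rla-0 was at 5028, 1742, 1197 and 3178 CPM across WT libraries 1 to 4, and at 4389.6, 2207, 2409 and 3068 CPM across 3A libraries 1 to 4. rla-1 was at 8631, 4863, 2394 and 9411 CPM across WT and at 8783, 3958, 4914 and 5689 CPM in 3A. rla-2 was at 5468, 3738, 1667 and 7961 CPM across WT and at 5536, 2070.4, 3819.6 and 3871 CPM in 3A. All 3 were lowest in WT replicate 3 and overlapped between the groups, with log2 fold changes of 0.12, -0.12 and -0.30 (SE 0.50, 0.53 and 0.53; edgeR adjusted p = 0.959, 0.962 and 0.884). Per kilobase rla-1 and rla-2 stood above rla-0 in WT, at 14342 ± 7456 and 10439.8 ± 5915 against 2697 ± 1657 CPM per kb (SD, n = 4 each).

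ubl-1 encodes a small subunit protein made as a fusion to a ubiquitin-like domain. It was at 4847, 2447, 1498 and 4470.2 CPM across WT libraries 1 to 4, and at 5072, 2715, 2477 and 2859 CPM across 3A libraries 1 to 4. The estimated log2 difference was -0.02 (SE 0.48; edgeR adjusted p = 0.996). The small subunit genes with the largest positive values were rps-28 at 0.26 (SE 0.51; adjusted p = 0.897) and rps-0 at 0.18 (SE 0.46; adjusted p = 0.923), and in the large subunit rpl-29 reached 0.38 (SE 0.47; adjusted p = 0.834). Outside the rule, ubq-2, which encodes ubiquitin fused to a large subunit protein, was at 2847 ± 1124 CPM for WT and 2878 ± 795 for 3A, and rack-1, a scaffold bound to the small subunit, at 1407 ± 1001 and 1343 ± 408 CPM (SD, n = 4 each).

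The members moved together from library to library, within as well as between the genotypes. On the log2 scale, the median over 81 members of a gene's level minus its own mean over the 8 libraries was 0.54, -0.20, -0.97 and 0.57 in WT replicates 1 to 4. It was 0.58, -0.51, -0.04 and 0.03 in 3A replicates 1 to 4. WT replicates 1 and 4 and 3A replicate 1 were high, and WT replicate 3 was low for all 81 members. In WT replicate 4, 78 of 81 members lay above their own mean, in 3A replicate 1 79 of 81, and in 3A replicate 2 only 2 of 81. WT replicate 3 was the lowest library for 71 members. The same median over all genes tested stayed between -0.02 and 0.06 in every library. These positions depended on the scaling. With scaling by library size alone the members' median was 0.09, 0.20, -0.03 and 0.28 in WT replicates 1 to 4 and 0.04, 0.02, 0.04 and -0.64 in 3A replicates 1 to 4, so that 3A replicate 4, with the highest ribosomal RNA share, was the lowest and WT replicate 3 stood near 0. The TMM factor was largest, 1.92, in WT replicate 3 and smallest, 0.630, in 3A replicate 4. Under TMM, a member varied with a median SD of 0.63 on the log2 scale, and with 0.25 once the members' median of each library was subtracted.

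As a description, the median Pearson r between pairs of members over the 8 libraries was 0.86 (3240 pairs; quartiles 0.66 and 0.94), and 98.8% of pairs were positive. Over all pairs of the 12664 genes tested the median was -0.0016, with 49.9% positive. The 191 other genes that averaged 500 CPM or more had a median of 0.68 among themselves and of 0.74 with the members. All pairs share the same 8 libraries and the same scaling factors. Under scaling by library size alone the median was 0.58 for the members and 0.26 for those 191 genes, while that of the 69 mitochondrial ribosomal protein genes went from 0.19 to 0.87, so which set was the more coordinated depended on the scaling. The values were 0.89 within groups, after subtraction of the group means, and 0.85 without ribosomal RNA genes in the scaling. The median was 0.88 among small subunit genes and 0.83 among large subunit genes. The mean log2 CPM of the large subunit genes minus that of the small subunit genes was -0.44, -0.37, -0.33 and -0.36 in WT replicates 1 to 4 and -0.33, -0.29, -0.28 and -0.35 in 3A replicates 1 to 4. Gene length is not divided out here, so the sign gives no order of the subunits, but the difference stayed between -0.44 and -0.28 in all 8 libraries.

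Markers of differentiated tissue differed between the same libraries. The 5 epidermis markers summed to 1766, 516, 321 and 885 CPM across WT libraries 1 to 4, and to 1368, 552, 539 and 659 CPM across 3A libraries 1 to 4. Epidermis markers were highest in the 3 libraries in which ribosomal protein genes were high under TMM, and lowest in WT replicate 3. The other lists did not all follow. WT replicate 1 and 3A replicate 1 had the highest sums for body wall muscle, intestine, neurons and pharynx too, but WT replicate 4 did not stand out in each of these. There the 5 neuron markers summed to 109 CPM, beside 112 in WT replicate 3, and the 5 intestine markers to 135 CPM, beside 133. Body wall muscle markers summed to 370.0 CPM in WT replicate 4, beside 338 in WT replicate 3, and pharynx markers to 333 CPM, beside 154. The lowest sums for body wall muscle, intestine and neurons were in 3A replicate 3, at 262, 97.2 and 96.1 CPM. The part of tissue composition or stage in the ribosomal protein levels was not tested.

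**Figure D5:**
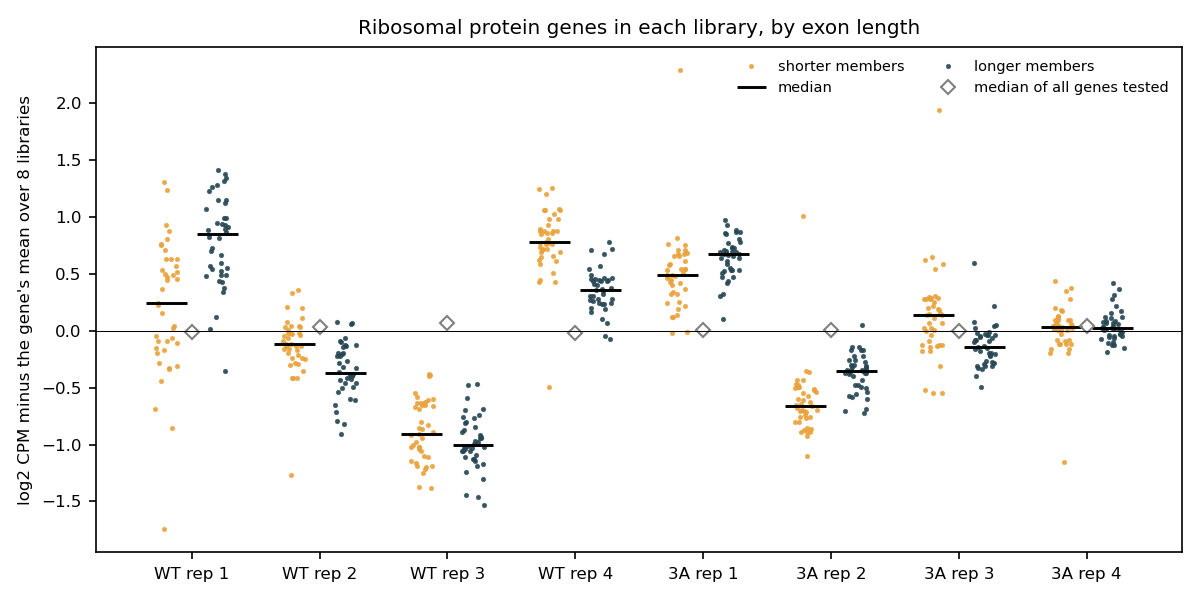
Log2 CPM of each of the 81 members minus its mean over the 8 libraries, split at the median exon length of 530 bp into 41 shorter and 40 longer genes, with the median of each set (bars) and of all genes tested (diamonds). Longer genes lie above shorter ones in WT replicate 1 and below them in WT replicate 4, and both sets are low in WT replicate 3.

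Exon length divided the members within libraries. With the 81 genes split at their median of 530 bp, the median deviation of the longer minus that of the shorter genes was 0.60, -0.25, -0.09 and -0.42 on the log2 scale in WT replicates 1 to 4. In 3A replicates 1 to 4 it was 0.19, 0.31, -0.28 and -0.01. Longer members were thus relatively high in WT replicate 1 and shorter ones in WT replicate 4, which are libraries of the same genotype. The 37 members that were highest in WT replicate 4 had a median exon length of 460.0 bp and the 32 highest in WT replicate 1 one of 712 bp. Spearman's rho between exon length and the deviation ran from -0.77 in WT replicate 4 to 0.61 in 3A replicate 2. Other genes of like length showed the same signs. Among 576 other protein-coding genes with 236 to 1456 bp of exon and an average of 100 CPM or more, the same difference was 0.41, -0.08, -0.04 and -0.37 in WT replicates 1 to 4 and 0.06, 0.24, -0.13 and -0.06 in 3A replicates 1 to 4. The sign was that of the members in 8 of 8 libraries, though in 3A replicate 4 the members' difference was only -0.0089. In that library Spearman's rho was 0.039 for the members and -0.015 for the other genes. rpl-36.A, the member with the lowest mean r after rpl-37, has 398 bp of exon (chromosome II, 11096542 to 11097204, minus strand). It was at 3371, 7677, 4186 and 14502 CPM across WT libraries 1 to 4, and at 6732, 4783, 7009.8 and 5465 CPM across 3A libraries 1 to 4. Its WT replicate 1 value is the lowest of all 8, although 64 of 81 members lay above their own mean in that library. Fragment lengths were not used here, and their part was not tested.

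In the genome the members are spread unevenly. Chromosome I holds 25 of the 82 (30.5%, beside 16.9% of all genes tested) and chromosome X holds 2 (2.44%, beside 14.6%), namely rpl-11.2 and rpl-25.1. Most are compact, with a median of 3 exon blocks, and 14 of them enclose 21 annotated small nucleolar RNA genes, which guide the modification of ribosomal RNA. Exons of rpl-5, rpl-7, rpl-23, rps-4 and rps-20 overlap another annotated gene on the same strand, by 16, 6, 1, 21 and 110 bp respectively. Their counts leave out ambiguous reads and are uncertain to that extent. In 4 places members lie within 2000 bp of each other with no other protein-coding gene between. The divergent pairs rps-10 with rpl-24.1 and rps-14 with rpl-36 had r = 0.93 each over the 8 libraries, the tandem rpl-41.1 and rpl-41.2 had r = 0.92, and the divergent pair rpl-39 and rps-30 had r = 0.43, on either side of the median of 0.86 over all pairs.

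Other parts of the translation machinery were compared from lists written by hand, and 0 genes of these lists were called by edgeR, beside 0.371% of all genes tested. At an unadjusted p-value under 0.05 there were 1 of the 31 initiation factor genes, 2 of the 41 biogenesis genes and 0 of the other lists, beside 9.75% of all genes tested. The 8 translation elongation factor genes, whose products carry the ribosome along the message, had a median log2 fold change of 0.23, with 6 positive. They followed the ribosomal protein genes from library to library, with a median r of 0.73 between the sets under TMM scaling. That is no higher than the 0.74 of the 191 other genes that averaged 500 CPM or more. The 31 initiation factor genes had a median of 0.17, with 21 positive and ifg-1, the eIF4G scaffold, at an unadjusted p-value under 0.05. ifg-1 was at 24.9 ± 7.39 CPM for WT and 42.4 ± 16.3 for 3A (SD, n = 4 each; log2 fold change 0.77, SE 0.33; edgeR adjusted p = 0.486), and the groups overlap. It is named here after its values were seen.

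The 41 genes of ribosome biogenesis and RNA polymerase I had the highest median of these lists, 0.28. Under TMM 37 of them were positive, beside 5416 of the 12664 genes tested. With scaling by library size alone 25 of them were positive, beside 2618 of the 12664. The 8 early embryo or oocyte markers, which summed to between 15.4 and 24.21 CPM in WT and between 26.2 and 44.1 CPM in 3A, were likewise higher in every 3A than in every WT library, and their part in these values was not tested. For 4 of the 41 biogenesis genes every 3A library lay above every WT library, beside 3.80% of all genes tested. These were pro-3, nol-56, nol-10 and lpd-7, named here after their values were seen. nol-56, a core protein of the box C/D small nucleolar ribonucleoproteins, was at 392 ± 113 CPM for WT and 529 ± 14.3 for 3A (SD, n = 4 each; log2 fold change 0.43, SE 0.31; edgeR adjusted p = 0.680). pro-3 was at 11.5 ± 4.18 and 20.6 ± 2.88 CPM (log2 fold change 0.85, SE 0.28; edgeR adjusted p = 0.382). ncl-1, known as a repressor of nucleolar size and ribosomal RNA synthesis, had an unadjusted p-value under 0.05 as well, at 2.18 ± 0.865 and 6.34 ± 4.73 CPM (log2 fold change 1.50, SE 0.48; edgeR adjusted p = 0.359), with groups that overlap, and is also named after its values were seen.

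The 20 cytosolic aminoacyl-tRNA synthetase genes, whose products load transfer RNAs, had a median log2 fold change of 0.04, with 12 positive. The 69 mitochondrial ribosomal protein genes had a median of -0.17, with 19 positive, and took 0.311% ± 0.122 of gene counts for WT and 0.234% ± 0.0906 for 3A (SD, n = 4 each). Without ribosomal RNA genes in the denominator the shares were 0.315% ± 0.121 and 0.272% ± 0.0607. Their median r with the cytosolic genes was -0.09 under TMM scaling. With scaling by library size alone the median of all genes fell to -0.40, and the list medians were 0.02 for elongation factors, -0.12 for initiation factors, 0.04 for biogenesis, -0.29 for synthetases, -0.45 for mitochondrial and -0.29 for cytosolic ribosomal protein genes. The sign for initiation factors and synthetases therefore turned with the scaling, and the cytosolic ribosomal protein genes lay just below the median of all genes under TMM and above it under library size.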

How the data were processed

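RNA from 4 WT and 4 3A libraries was read in pairs of 150 bp. The authors deposited raw counts per gene, 1 table per library. Per the submitters' processing notes, fastp, STAR, HTSeq and DESeq2 were used on build WBcel235. Versions and the annotation release are not given in the sources used here. Multiply aligned and ambiguous reads have counters of their own, kept out of library sizes and tests (per library, 1.82% to 14.4% of reads aligned to several places, 0.404% to 0.925% were ambiguous and 0.661% to 0.986% fell in no feature). Symbols came from a supplied table, and positions and exon lengths from Ensembl release 115 of WBcel235, matched by gene identifier.

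The test across genes was that of edgeR 4.0.16 in R 4.3.3 (filterByExpr with minimum count 10, TMM, quasi-likelihood F-test, Benjamini-Hochberg adjustment over 12664 genes, called under 0.05). The standard error is the log2 fold change over the square root of F. DESeq2 1.42.0 was an alternative. Log2 CPM for deviations and correlations used a prior count of 2. No pair of replicates agreed within sampling noise (lowest chi-square per degree of freedom 55.6). The labels call the replicates biological and say no more of their source. The test was checked on simulated counts. The smallest detectable signal was taken as 3 counts, between 0.0441 and 0.205 CPM.

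The members, the companion lists and the markers were chosen with earlier results of these data known, so no p-value was adjusted over a list or computed for a score. Of 35 initiation factor symbols listed 31 were found in the files, and 41 of 54 biogenesis symbols. Genes named are rla-0, rla-1, rla-2 and ubl-1, numbered copies, the 5 highest and lowest levels per kilobase, the 5 largest log2 fold changes in each direction, the 3 with the lowest mean correlation, and the member not tested. Alternatives covered scaling, filtering, the tool, the replicate number as a block, and leaving out libraries.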

Additional observations from a re-analysis of the deposited data

Results flagged for a closer look

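The ubl-1 level in 3A replicate 1, 5072 CPM, lay far from the other 3 3A libraries, the nearest of which was at 2859 CPM. The distance took 0.853 of the group's range. Under TMM 3A replicate 1 was high for most members, with 79 of 81 above their own mean, so a high value there is not particular to ubl-1. The ubl-1 levels in 3A were the only one of 56 groups of 4 libraries examined (the shares and the named members, in WT and in 3A) to hold a value that far apart. Chance alone gives about 1 in 20.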

How the results depend on the processing

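The difference in the share of counts stayed negative under every alternative run (a block cannot move it in this balanced design). It ran from -8.15 to -3.66 percentage points with 1 library left out and was -3.39 without both 3A replicates 1 and 4. Without ribosomal RNA genes in the denominator it was -1.76, and -1.75 without the 10 genes with the highest mean count as well. The members among those 10, namely rps-25, rpl-23, rpl-41.2, rpl-43, rps-24 and rpl-32, were then left out of the share too. Libraries were left out only with all gene counts as the denominator. Without ribosomal RNA genes the sign rested on WT replicate 4, whose share of 41.9% was the highest. The shares of WT replicates 1, 2 and 3, at 33.2%, 36.8% and 31.5%, average below the 3A mean of 34.1%. Ribosomal protein genes called went from 0 to 1 (rpl-37) with no filter on low counts, with DESeq2 and without 3A replicate 4, and lay between 0 and 1 over all fits with 1 library left out. All genes called numbered 47 of 12664, against 10 of 12664 with library size alone, 71 of 21192 with no filter and 153 of 21154 with DESeq2. They numbered 17 without both 3A replicates 1 and 4, and 18 to 196 with 1 library left out. The members' median log2 fold change was -0.38 without both these libraries. The median correlation between members was 0.58 with library size alone and 0.79 to 0.89 with 1 library left out. The cause of these shifts was not tested. For rpl-37, the log2 fold change ran from 2.01 without 3A replicate 1 to 2.79 without 3A replicate 4, and the edgeR adjusted p from 0.0213 without 3A replicate 4 to 0.614 without WT replicate 2.

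With library size alone the log2 fold change was -0.028 for rla-0, -0.20 for rpl-24.2, -0.18 for rpl-25.2 and -0.22 for rpl-41.1, all positive under TMM. Without both 3A replicates 1 and 4 it was -0.28 for rla-0, -0.12 for rpl-25.2, -0.0013 for rpl-41.1 and -0.10 for rps-0. With 1 library left out the sign turned for 21 of the 26 genes named, none of them called, with ranges of -0.14 to 0.58 for rla-0, -0.39 to 0.14 for rla-1, -0.58 to 0.082 for rla-2, -0.31 to 0.24 for ubl-1, -0.41 to 0.35 for rpl-11.2, -0.38 to 0.12 for rpl-24.1, -0.089 to 0.30 for rpl-24.2, -0.69 to 0.23 for rpl-25.1, -0.070 to 0.33 for rpl-25.2, -0.20 to 0.43 for rpl-41.1, -0.69 to 0.092 for rpl-41.2, -0.40 to 0.20 for rpl-43, -0.40 to 0.33 for rps-25, -0.61 to 0.10 for rpl-39, -0.26 to 0.37 for rpl-23, -0.24 to 0.56 for rpl-3, -0.35 to 0.70 for rpl-4, -0.050 to 0.53 for rps-0, -0.72 to 0.081 for rps-4, -0.55 to 0.046 for rpl-30 and -0.54 to 0.25 for rpl-36.A. The sign held for rpl-31, from -0.90 to -0.17, rps-28, from 0.036 to 0.71, rpl-29, from 0.19 to 0.86, and rpl-11.1, from 0.26 to 0.70.

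Same-numbered WT and 3A libraries had deviations from their group means that correlated at 0.57, 0.60, 0.18 and 0.0085. WT replicates 1 and 2 correlated best with their own number, and WT replicates 3 and 4 with another. The labels give same-numbered libraries only the number in common, so the main fit had no block. Whether some numbers mark a shared preparation was not tested. With the replicate block 175 genes were called, 0 of them members, and rpl-37 had an edgeR adjusted p of 0.0828. The members' median log2 fold change was 0.00 with 42 of 81 positive, and the median correlation was 0.83 (this last chosen after seeing the data). Under the block the log2 fold change was 0.0034 for rla-1, 0.075 for ubl-1, 0.042 for rpl-11.2, 0.041 for rpl-43, 0.067 for rpl-23, 0.15 for rpl-3 and 0.18 for rpl-4, all negative without it.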
